A study of Zea mays with 6 samples.

Results

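The genes described here encode 10 enzymes that build starch in the maize (Zea mays) kernel: 4 starch synthases, 2 starch branching enzymes and 4 debranching enzymes. They were chosen by identifier and enzyme class, and all 10 were found among the 39448 genes of the deposited tables. The study measured RNA by sequencing in endosperm, the kernel tissue that stores starch and protein, harvested 10 days after pollination from the floury3 mutant (fl3) and from wild type (WT), with 3 libraries of each. The design text describes the replicates of each genotype as independent biological ones, and the plants grew in a field. The labels give neither the inbred background nor the allele of the mutation, and they do not say whether WT and fl3 kernels were siblings. Levels are FPKM as the authors computed them, fragments scaled by gene length and library total. Comparisons between levels of different genes rely on that scaling, and the annotation used for it is not given. Sequencing depth could not be recovered from these values.

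Starch is made of amylose, a nearly unbranched glucan, and amylopectin, a highly branched one. Starch synthases add glucose from ADP-glucose to growing chains, branching enzymes cut chains and rejoin them as branches, and debranching enzymes remove branches, either trimming amylopectin so that it can crystallise or helping to break starch down. In maize endosperm many of these genes were found through kernel mutants, which is why they carry names such as waxy (wx1), dull (du1), amylose-extender (ae1) and sugary (su1, su2).

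The genotypes differed across the whole transcriptome. Of the 17272 genes that averaged 1 FPKM or more, 67.3% passed a limma test on log2(FPKM + 1) at an adjusted p under 0.05 (Benjamini-Hochberg over all tested genes), 43.5% higher and 23.8% lower in fl3. The values of the genotypes did not overlap for 71.7% of them, 45.8% with fl3 above and 25.9% with fl3 below WT. Over these genes the log2 fold change, fl3 minus WT, had a median of 0.14 with FPKM as deposited, 0.002 with median-of-ratios scaling and -0.018 with quantile normalization. The share of calls that were higher in fl3 was 64.7%, 50.4% and 48.3% in that order. Transcripts of the floury3 gene (GRMZM2G006585) were present in both genotypes, at 3158 FPKM in fl3 and 2260 FPKM in WT.

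The starchy endosperm markers were abundant in all libraries, and markers of several cell types differed between genotypes. All 3 starchy endosperm markers, the zein genes gz27, gz16 and bz15, fell in fl3, to a sum of 10493 to 14430 FPKM per fl3 library against 21773 to 26496 FPKM per WT library. All 5 markers of the embryo-surrounding region rose, with sums of 471 to 612 FPKM in fl3 and 141 to 179 FPKM in WT. Aleurone markers, of which 2 of 3 rose, summed to 199 to 210.3 FPKM in fl3 and 126 to 136 FPKM in WT. Of 4 embryo markers 3 were tested and 2 of those rose. The embryo marker sums were 219 to 252 FPKM in fl3 and 145 to 160.2 FPKM in WT. The embryo regulator lec1 averaged less than 1 FPKM and was not tested. It had 1.66, 1.03 and 1.07 FPKM in fl3 and 0, 0.0421 and 0 FPKM in WT. Of 6 basal transfer layer markers 5 were tested, and betl1 and betl3 rose without overlap while 3 did not pass. Their sums overlapped, at 1687 to 3166 FPKM in fl3 and 1374 to 2047 FPKM in WT. The leaf markers rbcs1 and psbs1 summed to at most 0.0557 FPKM in any library. The starchy endosperm markers were all zein genes. Fewer starchy cells and less zein or starch-enzyme RNA per cell cannot be told apart in such bulk samples. The part of these cell types in the results below was not tested.

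Of the 10 starch enzymes, 5 fell in fl3, 2 rose and 3 did not pass the test. The falls were those of the synthases wx1, ss1 and du1, the branching enzyme ae1 and the debranching enzyme su1, and the rises those of the debranching enzymes iso3 and zpu1. Their log2 fold changes had a median of -0.21, against 0.14 for all genes tested. All 10 passed the filter on low values, and the 7 called are to be read against the 67.3% of all tested genes that were called. The genotypes did not overlap for 8 of the 10, with fl3 below WT for 6 and above WT for 2, where the shares over all tested genes were 71.7%, 25.9% and 45.8%. The genes are found on chromosomes 2, 5, 6, 7, 9 and 10 of the reference assembly, apart from su1, whose identifier had no match there.

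**Figure D1:**
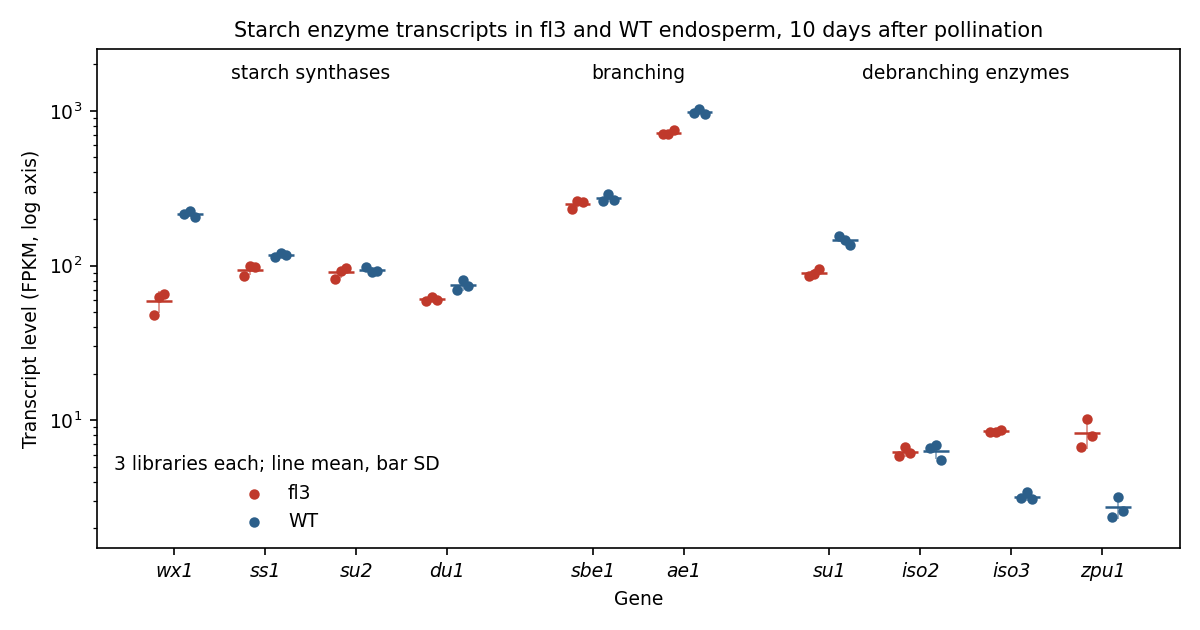
FPKM (log axis) of the 10 starch enzyme genes in each library, with fl3 left of WT for each gene; points are libraries, horizontal lines are means and vertical bars are SD (n = 3). The fl3 and WT points are far apart for wx1, iso3 and zpu1, and overlap for su2 and iso2.

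Among the starch synthases, the waxy gene wx1 (GRMZM2G024993) had the log2 fold change farthest from 0. It encodes granule-bound starch synthase I, the enzyme that makes amylose inside the granule. Its level was 47.9, 63.0 and 65.6 FPKM in fl3 replicates 1 to 3, and 215, 224 and 207 FPKM in WT replicates 1 to 3. Every fl3 library was below every WT library by a wide margin, and the mean fell to 58.8 ± 9.57 FPKM in fl3, against 215 ± 8.66 FPKM in WT (SD, n = 3; 0.273 of the WT mean). The log2 fold change was -1.87 (SE 0.11, limma adjusted p = 2.2e-06), and 1.19% of tested genes had a lower one. On the list of all 39448 genes ordered by mean level, wx1 held place 1470 in fl3 and place 297 in WT.

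The soluble synthases, which extend the chains of amylopectin, differed less. The ss1 gene (GRMZM2G129451), for starch synthase I, which extends the shortest chains, had 85.2, 99.6 and 97.8 FPKM in fl3 and 113, 119.8 and 117 FPKM in WT. The genotypes did not overlap, and the fall was by 0.31 on the log2 scale (SE 0.07, limma adjusted p = 0.00398). The dull gene du1 (GRMZM2G141399), for starch synthase III, which makes longer chains, had 59.2, 63.1 and 59.6 FPKM in fl3 and 69.8, 81.0 and 73.3 FPKM in WT. These groups did not overlap either, and du1 fell by 0.29 (SE 0.07, limma adjusted p = 0.00414), and the fl3 mean was 0.807 of the WT mean for ss1 and 0.812 for du1.

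The sugary2 gene su2 (GRMZM2G348551), for starch synthase IIa, which extends chains of intermediate length, did not pass. Its levels of 82.4, 92.1 and 96.8 FPKM in fl3 and 97.7, 90.9 and 92.6 FPKM in WT were interleaved. The log2 fold change was -0.05, with a 95% interval from -0.21 to 0.10 (limma adjusted p = 0.513). Under median-of-ratios scaling it was -0.22 and passed (limma adjusted p = 0.0269), and without fl3 replicate 1 it was 0.01.

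As a class, the 4 synthases summed to 275, 318 and 319.8 FPKM in fl3 and 495, 516 and 490.1 FPKM in WT, with the fl3 mean at 0.608 of the WT mean. The make-up of the class shifted with it. The share of wx1 was 19.3% ± 1.62 of the synthase sum in fl3 and 43.0% ± 0.694 in WT (SD, n = 3). In FPKM, ss1 and du1 also fell and su2 did not pass the test. As parts of a sum in which wx1 fell more, the shares of these other synthases were nevertheless higher in fl3. They were 31.0% in fl3 against 23.3% in WT for ss1, 29.8% in fl3 against 18.7% in WT for su2, and 20.0% in fl3 against 14.9% in WT for du1. In fl3 the most abundant synthase transcript was that of ss1, with su2 overlapping it, and in WT it was that of wx1.

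The ratio of wx1 to ss1 within a library, which no scaling factor can alter, was 0.562, 0.633 and 0.671 in fl3 and 1.90, 1.87 and 1.76 in WT. All fl3 ratios were below 1 and all WT ratios above it. The log2 ratio differed by -1.57 (exact two-sided permutation p = 0.1, the smallest that 3 libraries against 3 allow; 0.1 also when adjusted over the 4 ratios tested). This design cannot pass the threshold of 0.05 in such a test.

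**Figure D2:**
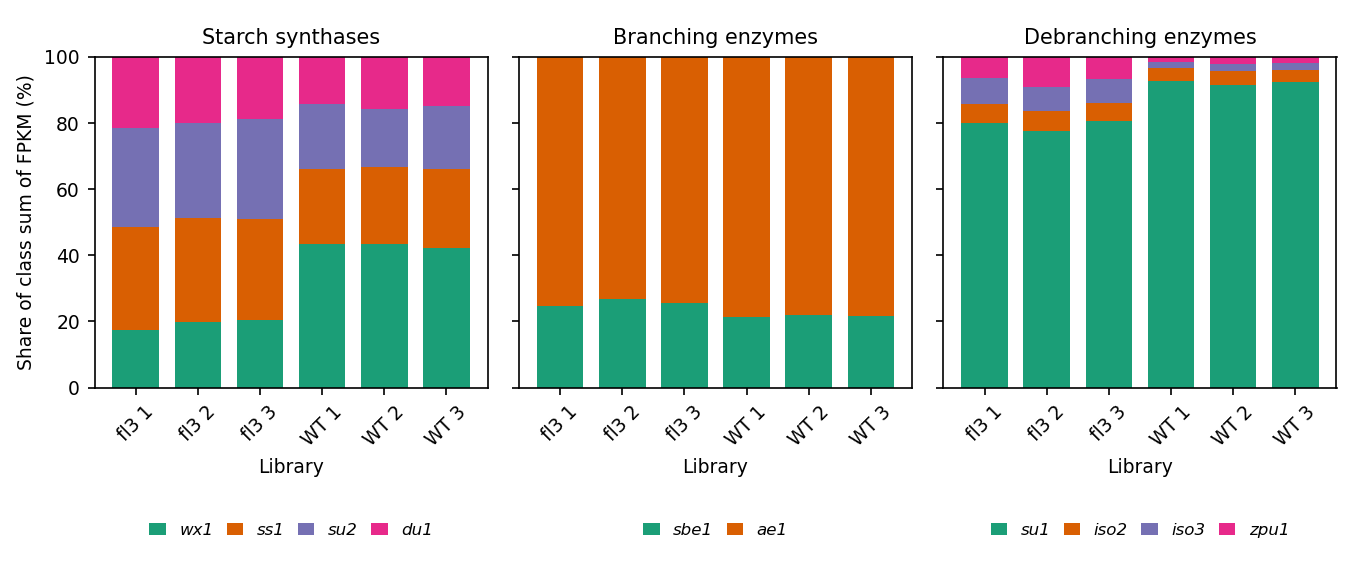
Share of each enzyme in the summed FPKM of its class (percent), in the 3 fl3 and then the 3 WT libraries. The wx1 band is narrow in fl3 (19.3% on average) and wide in WT (43.0%), and the bands of iso3 and zpu1 are wider in fl3.

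Both branching enzymes were more abundant than any synthase, and ae1 was the highest of the 10 genes in each library. The amylose-extender gene ae1 (GRMZM2G032628) encodes branching enzyme IIb, the main branching enzyme of maize endosperm. It had 711, 708 and 752 FPKM in fl3 and 973, 1032 and 961 FPKM in WT. No fl3 library reached the lowest WT library, and ae1 fell by 0.45 on the log2 scale (SE 0.07, limma adjusted p = 0.000407), to 0.732 of the WT mean. In FPKM this was the largest difference among the 10 genes, with means of 724 ± 24.3 in fl3 and 989 ± 38.2 in WT (SD, n = 3). The gene remained among the most abundant transcripts, at place 43 of all genes in fl3 and place 31 in WT.

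The sbe1 gene (GRMZM2G088753), for branching enzyme I, had 234, 259.6 and 259 FPKM in fl3 and 263, 291 and 265 FPKM in WT. The highest fl3 library was just below the lowest WT library, and the difference did not pass the test. The log2 fold change was -0.12, with a 95% interval from -0.28 to 0.04 (limma adjusted p = 0.146), and -0.29 under median-of-ratios scaling, where it passed (limma adjusted p = 0.00619). Its identifier was matched to 2 reference genes that also carry the identifier GRMZM2G088737. That second gene model had a mean of 6.83 FPKM in fl3 and 4.89 FPKM in WT, where sbe1 had 251 FPKM in fl3 and 273 FPKM in WT. The second model rose by 0.41 on the log2 scale (limma adjusted p = 0.00261). Whether reads were shared between the models was not tested.

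The ratio of ae1 to sbe1 was 3.04, 2.73 and 2.90 in fl3 and 3.71, 3.54 and 3.63 in WT. Every fl3 ratio was below every WT ratio, with a log2 difference of -0.33 (exact two-sided permutation p = 0.1, the smallest possible). Under quantile normalization the difference was -0.20 and the genotypes overlapped (exact p = 0.2). Together the branching enzymes summed to 945, 968 and 1010 FPKM in fl3 and 1236, 1324 and 1226 FPKM in WT, with the fl3 mean at 0.772 of the WT mean. Their share of the FPKM of all 10 genes was nevertheless higher in fl3, at 70.1% ± 1.09 against 65.7% ± 0.553 in WT (SD, n = 3), while that of the synthases was 21.8% ± 1.01 in fl3 and 26.1% ± 0.251 in WT.

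The debranching enzymes moved in different directions. The sugary1 gene su1 (GRMZM2G138060), for the isoamylase that trims misplaced branches during amylopectin synthesis, had 85.1, 88.6 and 94.9 FPKM in fl3 and 154, 146 and 136 FPKM in WT. The genotypes were well apart, and su1 fell by 0.69 on the log2 scale (SE 0.07, limma adjusted p = 3.33e-05), to 89.5 ± 4.98 FPKM in fl3 against 145 ± 9.35 FPKM in WT (SD, n = 3). After wx1 this was the deepest log2 fall among the 10 genes, and 7.65% of tested genes had a lower log2 fold change.

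The iso2 gene (GRMZM2G090905) encodes an isoamylase-type protein without catalytic activity that joins the su1 enzyme in a complex. Its level was low, 5.85, 6.75 and 6.11 FPKM in fl3 and 6.58, 6.91 and 5.56 FPKM in WT, with the groups interleaved. The log2 fold change was -0.02, with a 95% interval from -0.23 to 0.19 (limma adjusted p = 0.856), and its sign changed without fl3 replicate 1, WT replicate 1 or WT replicate 2. Under quantile normalization it was -0.23 and passed narrowly (limma adjusted p = 0.0476). The ratio of iso2 to su1 transcripts was 0.0687, 0.0762 and 0.0644 in fl3 and 0.0426, 0.0474 and 0.0410 in WT. All fl3 ratios were above all WT ratios, with a log2 difference of 0.67 (exact two-sided permutation p = 0.1, the smallest possible).

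The remaining debranching enzymes rose from low levels. The iso3 gene (GRMZM2G150796) encodes the isoamylase that in leaves acts mainly in starch breakdown. It had 8.44, 8.45 and 8.64 FPKM in fl3 and 3.14, 3.43 and 3.09 FPKM in WT. The fl3 libraries were nearly identical, with a coefficient of variation of 1.33%, and iso3 rose 2.65-fold by means (log2 fold change 1.17 on the log2(FPKM + 1) scale, SE 0.07, limma adjusted p = 2.72e-06). That scale understates the change of genes at such levels.

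The zpu1 gene (GRMZM2G158043) encodes the pullulanase-type debranching enzyme, which acts in both synthesis and breakdown of starch. It had 6.73, 10.3 and 7.86 FPKM in fl3 and 2.39, 3.22 and 2.60 FPKM in WT. Replicate 2 was the highest library of each genotype, and the lowest fl3 library was still above the highest WT library. The rise was 3.03-fold by means, to 8.29 ± 1.80 FPKM in fl3 against 2.74 ± 0.429 FPKM in WT (SD, n = 3), with a log2 fold change of 1.30 (SE 0.14, limma adjusted p = 7.16e-05). In relative terms zpu1 was the most variable of the 10 genes, with coefficients of variation of 21.7% in fl3 and 15.7% in WT.

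The ratio of zpu1 to su1 was 0.0791, 0.116 and 0.0829 in fl3 and 0.0155, 0.0221 and 0.0192 in WT. It was higher in each fl3 library than in any WT library, with a log2 difference of 2.28 (exact two-sided permutation p = 0.1, the smallest possible). Because su1 exceeded the other debranching enzymes in every library, the class as a whole was lower, at 106, 114 and 118 FPKM in fl3 and 166, 159 and 147 FPKM in WT, with the fl3 mean at 0.714 of the WT mean. The share of su1 in the class was 79.5% ± 1.64 in fl3 and 92.2% ± 0.635 in WT (SD, n = 3). The shares of iso3 and zpu1 were 7.57% and 7.35% in fl3, against 2.05% and 1.74% in WT.

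**Figure D3:**
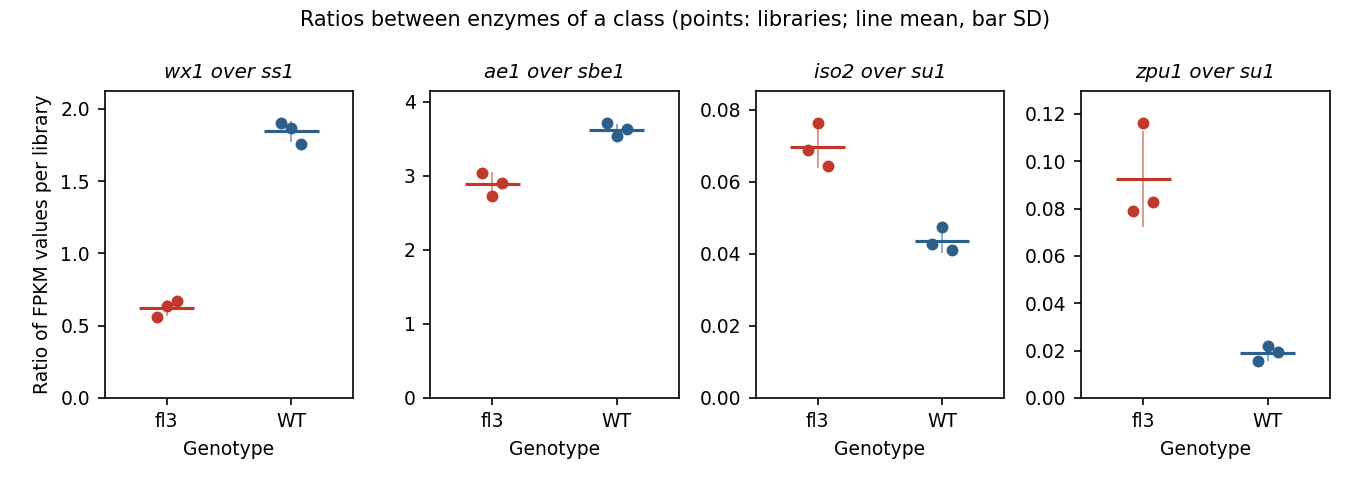
Ratios of FPKM between enzymes of a class, fl3 left of WT; points are libraries, lines are means and bars are SD (n = 3). The ratios of wx1 to ss1 and ae1 to sbe1 are lower in fl3, those of iso2 to su1 and zpu1 to su1 higher, and no panel shows an overlap of the genotypes.

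The 10 genes kept 2 tiers of abundance in both genotypes, with 7 genes at 47.9 FPKM or more and the debranching genes iso2, iso3 and zpu1 at 10.3 FPKM or less in every library. In fl3 the order of means was ae1, sbe1, ss1, su2, su1, du1, wx1, iso3, zpu1 and iso2. In that order ss1 overlapped su2, su2 overlapped su1, du1 overlapped wx1, iso3 overlapped zpu1 and zpu1 overlapped iso2. In WT the order was ae1, sbe1, wx1, su1, ss1, su2, du1, iso2, iso3 and zpu1, and the only neighbours whose ranges overlapped were iso3 and zpu1. Thus wx1 was the lowest of the upper tier in fl3 and followed sbe1 in WT, and iso2 closed the lower tier in fl3 and led it in WT. All 10 genes together took 0.294% ± 0.00999 of the FPKM sum in fl3 and 0.402% ± 0.0127 in WT (SD, n = 3).

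Libraries of a genotype also differed among themselves. Replicate 1 was the lowest fl3 library for 9 of the 10 genes, all except ae1, and its FPKM sum of 465741 was the lowest of the 6 libraries, which ran up to 480602. Without it the same numbers of starch enzyme genes were called, 2 up and 5 down. Replicate 1 was also the lowest fl3 library for each starchy endosperm marker, with a sum of 10493 FPKM. It was the highest fl3 library for each marker of the embryo-surrounding region, with a sum of 612 FPKM. Whether the library total or these markers relate to its low starch enzyme values was not tested. Among WT libraries, replicate 3 was the lowest for 5 genes and replicate 1 for 4.

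**Figure D4:**
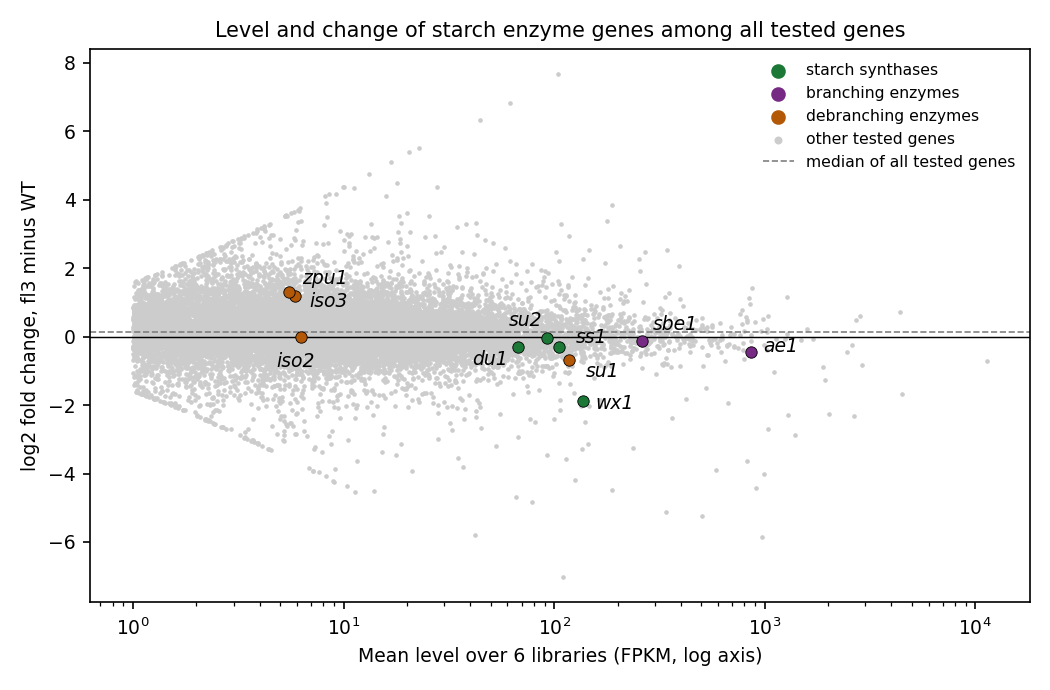
Log2 fold change (fl3 minus WT) of each tested gene against its mean level over the 6 libraries (FPKM, log axis), with the 10 starch enzyme genes coloured by class; the dashed line is the median of all tested genes, 0.14. The iso3 and zpu1 points lie above the median line at low level, wx1 lies below most genes of its level, and the other 7 lie closer to the line.

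The falls were all in the upper tier and the rises in the lower one, so the calls are also set beside those of all genes of like level. Of 1730 tested genes averaging 50 FPKM or more, 31.5% fell and 36.4% rose, with a median log2 fold change of 0.03. Of 9615 tested genes averaging from 1 to 10 FPKM, 20.7% fell and 45.9% rose, with a median of 0.22. The 7 enzymes of the upper tier had 5 that fell and 0 that rose by limma, and the same counts at an unadjusted p under 0.05. The lower tier had 2 of 3 that rose. The log2 fold changes of iso3 and zpu1 were exceeded by 7.24% and 5.60% of all tested genes.

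Other genes of starch metabolism were matched by symbol, 11 in all, and every one was tested. Of these 7 fell, 2 rose and 2 did not pass, where 23.8% of all tested genes fell and 43.5% rose. The median log2 fold change was -0.66, against 0.14 for all genes tested. With sbe3 added, 8 fell under median-of-ratios scaling, under quantile normalization and without the variance trend. Genes that supply ADP-glucose were among those that fell. The pyrophosphorylase subunit genes sh2 (GRMZM2G429899), bt2 (GRMZM2G068506) and Agpsemzm (GRMZM2G106213) and the plastid membrane transporter gene bt1 (GRMZM2G144081) fell by 0.66, 0.91, 1.87 and 0.86 on the log2 scale. A gene matched only by the name AGP2 (GRMZM2G027955), a name that may also stand for another gene family, fell to 20.9 ± 1.05 FPKM in fl3 against 32.5 ± 0.501 FPKM in WT (SD, n = 3). The sucrose synthase genes sh1 and sus1, whose enzymes cleave incoming sucrose, differed in direction. While sh1 (GRMZM2G089713) fell by 1.04, sus1 (GRMZM2G152908) rose to 324 ± 30.7 FPKM in fl3 against 226 ± 19.6 FPKM in WT (log2 fold change 0.52, limma adjusted p = 0.00104), and sus2 (GRMZM2G318780) did not pass, at 4.64 FPKM in fl3 and 4.24 FPKM in WT.

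Of related synthase and branching isoforms, only GBSSIIa and sbe3 were matched by symbol, so the levels of other isoforms are not given. Both were below the listed genes of their class in every library. GBSSIIa (GRMZM2G008263), a granule-bound synthase related to wx1, had 17.7, 15.4 and 15.7 FPKM in fl3 and 10.6, 11.4 and 9.96 FPKM in WT. It rose without overlap while wx1 fell (log2 fold change 0.57, SE 0.08, limma adjusted p = 0.000236), yet stayed below wx1 in every fl3 library. A further branching enzyme gene, sbe3 (GRMZM2G005298), had means of 2.30 FPKM in fl3 and 2.73 FPKM in WT. It did not pass (limma adjusted p = 0.0897), at a log2 fold change of -0.18. It passed at -0.43 under quantile normalization (limma adjusted p = 0.0017), at -0.29 under median-of-ratios scaling (limma adjusted p = 0.0117) and at -0.18 without the variance trend (limma adjusted p = 0.0408). The starch phosphorylase gene pho1 (GRMZM2G074158) fell to 252 ± 25.2 FPKM in fl3 against 464 ± 38.0 FPKM in WT (SD, n = 3; log2 fold change -0.88, limma adjusted p = 4.53e-05).

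**Figure D5:**
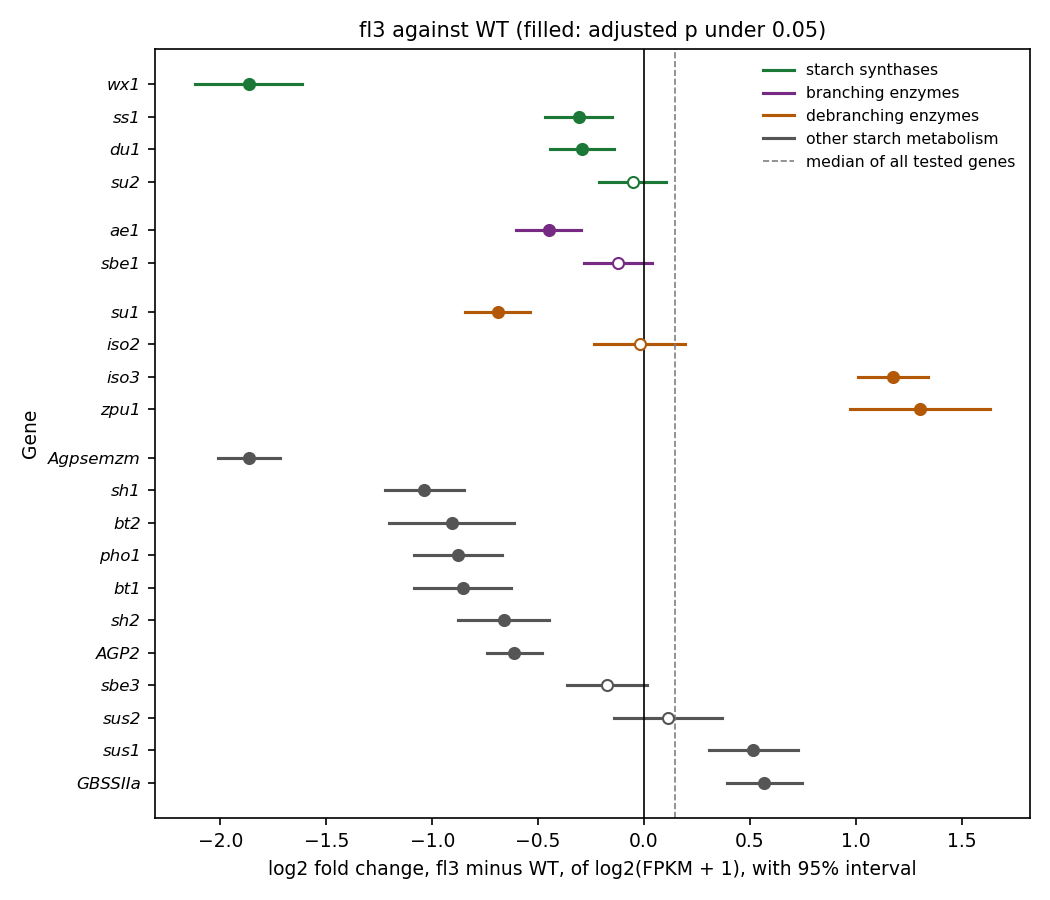
Log2 fold change (fl3 minus WT, of log2(FPKM + 1)) with its 95% interval for the 10 starch enzyme genes by class and for 11 other starch metabolism genes; filled circles passed the limma test at an adjusted p under 0.05. The longest distance below 0 is that of wx1 and Agpsemzm, at -1.87 each, and zpu1 lies farthest above it at 1.30.

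As a description over the 6 libraries, the named genes whose log2(FPKM + 1) followed the first member of each class most closely were listed. For wx1 these were TAR3 (GRMZM2G141810), BSD6 (GRMZM2G167207) and the alpha-zein gene z1C1_8 (GRMZM2G044152), with Pearson r of 0.999, 0.998 and 0.997. For su1 they were PP2C8 (GRMZM2G019819), hao1 (GRMZM2G076239) and PDK1 (GRMZM2G107196), each at an r of 0.999. The libraries of the genotypes form separate clusters, and values this high were common for wx1 and su1. An r above 0.95 was found for 244 of 1756 named genes with wx1, and for 233 of 1757 with su1. For sbe1 no named gene reached 0.95, and the closest were rfz1 (GRMZM6G949474), atp3 (GRMZM2G138220) and DAO (GRMZM2G025977), with r of 0.941, 0.940 and 0.934.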

How the data were processed

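The authors deposited 1 table of FPKM values per library, used here as given. The submitters' processing notes name FastQC, TopHat, Bowtie2 and, as build, B73 RefGen_v3. What computed FPKM, on which annotation and with which strand setting is not given in the sources used here. Steps of whole reads were not found: among genes under 0.5 FPKM, at most 5.81% of ratios to WT replicate 1 lay within 1% of the most frequent ratio. Depth is therefore unknown, and no counting interval is given.

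Genes averaging 1 FPKM or more were fitted as log2(FPKM + 1) with limma 3.58.1 in R 4.3.3, with a mean-variance trend and genotype as the only term. The fit was also run on simulated data in which far fewer genes changed than here, so that run does not give its error rate in these libraries. Ratios were tested with exact permutation tests in SciPy 1.17.1. Alternatives covered pseudocount, filter, scaling, variance trend, library weights, replicate number as a block, and each library left out. Symbols and chromosomes came from a RefSeq gene table of Zm-B73-REFERENCE-NAM-5.0, which matched 18906 identifiers and 9 of the 10 enzymes; the name su1 is that of the gene list. Of 33 pathway symbols searched, 22 had no match. Among marker symbols, al9, rbcs2, cab1 and lhcb1 had none. The genes named are the 10 enzymes, pathway genes called with a log2 change of at least 0.5, 3 genes per class most like its first member, the floury3 gene and cell type markers (gz27, gz16, bz15, rbcs1 and psbs1 by name); sus2, sbe3, the second sbe1 model, lec1, betl1 and betl3 were added after their values were seen. Members and lists were chosen with earlier results of these data known.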

Additional observations from a re-analysis of the deposited data

How the results depend on the processing

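Across 15 alternatives the 7 starch enzymes called in the first place kept their direction and their side of the threshold in each, and 2 rose in each. Median-of-ratios scaling added falls of su2 and sbe1, for 7 down, and quantile normalization a fall of iso2, for 6 down. The sign turned for genes that had not passed: iso2 was 0.030 with library weights and ran from -0.10 to 0.035 with single libraries left out, su2 ran from -0.10 to 0.011, and sus2 was -0.02 with median-of-ratios and -0.13 with quantile scaling. The log2 ratio of mean class sums was -0.72 for synthases, -0.37 for branching and -0.49 for debranching enzymes. Under median-of-ratios scaling these were -0.88, -0.54 and -0.65. That scaling divides all values of a library by the same factor, so it moves all classes alike. The branching value was -0.27 under quantile normalization, and the cause of that shift was not tested. With a mean of at least 5 FPKM required, 4771 genes rose instead of 7519, since fewer genes were tested.

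The design text states no pairing of libraries by replicate number. Deviations of same-numbered libraries correlated at -0.153, 0.072 and -0.023, which with 3 libraries per genotype cannot exclude a pairing. With the replicate block 7240 genes rose and 3897 fell, with the same 2 and 5 enzymes counted, and the 4 ratios had an exact p of 0.25, the smallest that 3 pairs allow. Only 3 libraries per genotype and an unknown depth limit what can be said of su2, sbe1 and iso2.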
